A study of Mus musculus with 9 samples.

Results

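The genes examined here encode the machinery by which a cell loads peptides on MHC class II and shows them to CD4+ T cells. The 7 members were taken by name: H2-Aa, H2-Ab1, H2-Eb1, H2-DMa, H2-DMb1, Cd74 and Ciita. All 7 were found among the 23747 genes of the 9 single-nucleus expression matrices. The matrices came from frozen hearts of C57BL/6 mice, with 3 mice in each of 3 groups and 1 library per mouse. In the sham group, 7 days of vehicle gavage preceded an operation without ligation of the coronary artery. In the I/R group, the vehicle was followed by 30 min of ischemia, with the left anterior descending artery tied, and the hearts were reperfused for 24 h. The SBP group had the I/R procedure after 7 days on Shexiang Baoxin Pill (MUSKARDIA), a Chinese herbal preparation. The tissue was taken from below the ligation, and nothing in the labels gives sex. No group received the pill without ischemia.

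MHC class II is a surface heterodimer of an α and a β chain, and H2-Aa pairs with H2-Ab1 to form H2-A. H2-Eb1 is the β chain of H2-E, a dimer that C57BL/6 cells do not carry at their surface because this strain does not express its α chain, so H2-Eb1 is given here as an RNA of the class II genes. The newly made dimer binds the invariant chain, encoded by Cd74, which blocks the groove and guides the dimer to endosomes, where the H2-DM heterodimer (H2-DMa with H2-DMb1) exchanges the remaining invariant chain fragment for peptide. Ciita encodes the coactivator that switches the group on through factors bound to a shared promoter element. Dendritic cells and B cells make these proteins constitutively, macrophages make them in variable amounts and many other cells can be induced to do so by interferon gamma.

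On GRCm38, with GENCODE vM21, 5 members lie in the H2 region of chromosome 17. These are H2-DMa (chr17:34119541-34139101, plus strand), H2-DMb1 (chr17:34153072-34160230, plus), H2-Ab1 (chr17:34257689-34269419, plus), H2-Aa (chr17:34282744-34287823, minus) and H2-Eb1 (chr17:34305867-34316674, plus). H2-DMa overlaps Brd2 on the other strand and 3 further annotated genes, and H2-Eb1 overlaps Gm20513. The sources used here do not give the strand or intron setting of the counting, so reads of overlapping genes may not have been told apart. H2-DMb1 has a related neighbour in H2-DMb2, as H2-Eb1 has in H2-Eb2. Whether reads were told apart within these pairs was not tested, and their values carry that uncertainty.

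The promoters of 3 members are shown because their RefSeq promoter entry (GRCm38.p6) held a pair of short motifs at a similar place. All 3 fell together in myeloid nuclei after I/R. The reference used here held no promoter entry for H2-Ab1, Cd74 and Ciita, which fell as well, so theirs were not examined. Class II promoters are known to carry an X box, bound by the RFX complex, and a Y box, bound by NF-Y, which together recruit Ciita. Each line gives the 140 bases before the RefSeq start, 5′ to 3′ on the gene's strand, and the capitals mark GNAAC followed by TGATTGG, which holds the reverse of the CCAAT element of NF-Y. The stretches are chr17:34287824-34287963 (minus) for H2-Aa, chr17:34305727-34305866 (plus) for H2-Eb1 and chr17:34153051-34153190 (plus) for H2-DMb1, the last of which runs past the GENCODE start of its gene.
H2-Aa: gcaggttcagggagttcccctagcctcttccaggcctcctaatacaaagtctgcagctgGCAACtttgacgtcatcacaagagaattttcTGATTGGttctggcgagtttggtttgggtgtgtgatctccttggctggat
H2-Eb1: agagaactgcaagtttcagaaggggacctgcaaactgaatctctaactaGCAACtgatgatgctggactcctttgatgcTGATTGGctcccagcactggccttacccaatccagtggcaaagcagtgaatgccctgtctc
H2-DMb1: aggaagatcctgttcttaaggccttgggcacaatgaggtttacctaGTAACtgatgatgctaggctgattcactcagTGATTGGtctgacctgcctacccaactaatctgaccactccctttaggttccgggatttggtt

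GNAAC began 81 bases before the start in H2-Aa, 91 in H2-Eb1 and 94 in H2-DMb1, and the spacer to TGATTGG was 26, 25 and 26 bases. The letters were chosen after reading these sequences, and a match describes the window only. TGATTGG on either strand was found in 7.82% of 32851 RefSeq promoter windows of 300 bases, and the pair with a spacer of 15 to 40 bases in 0.715%. H2-Oa, H2-Ob and H2-Eb2, which lie in the same region, also held the pair. H2-DMb2 held TGATTGG without it, and neither RefSeq window of H2-DMa held either. The other 2 members lie elsewhere: Ciita at chr16:10480059-10528418 (plus), where it overlaps Dexi, and Cd74 at chr18:60803848-60812652 (plus), where it holds Mir5107.

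The files held 49171 nuclei, with 4576 to 6418 per mouse, 10329520 to 18205985 recovered UMIs per library and a median of 1540 to 2031 UMIs per nucleus. Cell types were rebuilt from clusters and markers that did not include the members, so each name means a population like that type. Over 10% of nuclei held each of 6 of 7 resident macrophage markers, 6 of 9 dendritic cell markers and 6 of 6 B cell markers in the classes so named. I/R replicate 1 stood apart from the other I/R mice: 35.9% of its nuclei were myeloid, 63.9% of these were of the injury macrophage class (5.48% and 27.8% in replicates 2 and 3), and it held 113 dendritic and 207 T cell nuclei (22 and 21 dendritic, 47 and 45 T cell nuclei in the others). Results that rest on this library are therefore given with and without it. It was not the only mouse unlike its group. In SBP replicate 2, 28.3% of nuclei were myeloid (12.9% and 13.5% in SBP replicates 1 and 3). Injury macrophages made up 45.3% of these (20.8% and 26.8%), and it held 97 dendritic (13 and 22) and 140 T cell nuclei (33 and 30). Monocytes made up 56.2% of the myeloid nuclei in I/R replicate 2 (8.13% and 14% in I/R replicates 1 and 3). Of 48881 distinct barcodes, 290 occurred in more than 1 library. In the summed levels given here, fewer expressing nuclei and less RNA in each cannot be told apart, and shares of nuclei are given for that reason.

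The members had their highest means in dendritic cells and B cells, and low means in the structural cells of the heart. Only the 3 I/R mice had at least 20 neutrophils, and H2-Aa was at 0 in each, whereas all 200 neutrophil nuclei summed over the 9 mice gave 9.98 CPM. Levels are given in counts per 1000000 UMIs (CPM) of the nuclei of 1 type summed per mouse, for mice with at least 20 such nuclei, and are compared only within a gene. Cd74 had a mean of 902 ± 156 CPM (SD, n = 7 mice) in dendritic cells, 876 ± 123 (n = 7) in B cells and 255 ± 192 (n = 9) in resident macrophages. In the structural types its mean was 35.7 ± 22.6 in endothelial cells, 23.7 ± 16.1 in fibroblasts and 9.52 ± 6.2 in cardiomyocytes (n = 9 each). The means of the other 6 members ran from 2.33 CPM (H2-DMb1) to 12.3 (H2-Aa) in endothelial cells, from 1 (H2-DMb1) to 15.8 (H2-DMa) in fibroblasts and from 0.634 (H2-DMb1) to 5.62 (H2-DMa) in cardiomyocytes. The ranges over mice of dendritic and B cells overlapped for Cd74, whereas those of B cells and resident macrophages did not.

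H2-Aa, the α chain, followed the same order with 718 ± 137 CPM in dendritic cells, 340 ± 164 in B cells and 120 ± 96.3 in resident macrophages. H2-Ab1, its partner, had 572 ± 226, 262 ± 55.2 and 95.9 ± 66.2 CPM in the same 3 types, and H2-Eb1 had 655 ± 187, 341 ± 87.4 and 119 ± 90.2. Ciita, the coactivator, had 746 ± 263, 313 ± 123 and 82.9 ± 64 CPM. H2-DMb1, a chain of the peptide exchange factor, was the exception at the top, with 289 ± 90.6 CPM in B cells and 239 ± 102 in dendritic cells, and these ranges overlapped. For each of these 5 genes every pair of neighbours in the order down to cardiomyocytes had overlapping ranges, so the order is that of the means.

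Cycling myeloid nuclei, monocytes and injury macrophages had lower means over mice than the resident macrophages for Cd74 and H2-Aa, and these means rest on different groups. Cd74 had a mean of 115 ± 87.4 CPM (n = 5) in cycling nuclei, 85.3 ± 59.1 (n = 6) in monocytes and 41.2 ± 43.8 (n = 6) in injury macrophages, and H2-Aa had 50.4 ± 52, 35.4 ± 38.3 and 21.6 ± 27.7. The sham hearts held too few monocyte and injury macrophage nuclei for a value, and 1 sham mouse alone, at 267 CPM of Cd74 and 139 of H2-Aa, raised the cycling means. In the I/R mice Cd74 averaged 79.1 CPM in cycling nuclei (n = 2), 86.8 in monocytes and 99.4 in resident macrophages (n = 3 each), and in the SBP mice 75.9, 83.9 and 164. In the I/R mice the order of the means was the other way for H2-Ab1 (45.8 CPM in monocytes, 37.9 in resident macrophages) and H2-DMb1 (24.2 and 14.1). For H2-Ab1 this rested on I/R replicate 1, at 110 and 86.7 CPM. The other I/R mice had 12.2 and 15.3 in monocytes and 12.4 and 14.6 in resident macrophages. For H2-DMb1 it did not hold in I/R replicate 2 (2.55 and 4.5). H2-DMa, the other chain of the exchange factor, spanned the narrowest range, from 100 ± 49.3 CPM in dendritic cells through 40.7 ± 34.1 in B cells and 28.4 ± 5.9 in resident macrophages to 5.62 ± 1.22 in cardiomyocytes, and all its neighbouring types overlapped. Monocytes (28.2 CPM), injury macrophages (27.5 CPM) and cycling nuclei (25.1 CPM) were close to the resident macrophages for H2-DMa.

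**Figure D1:**
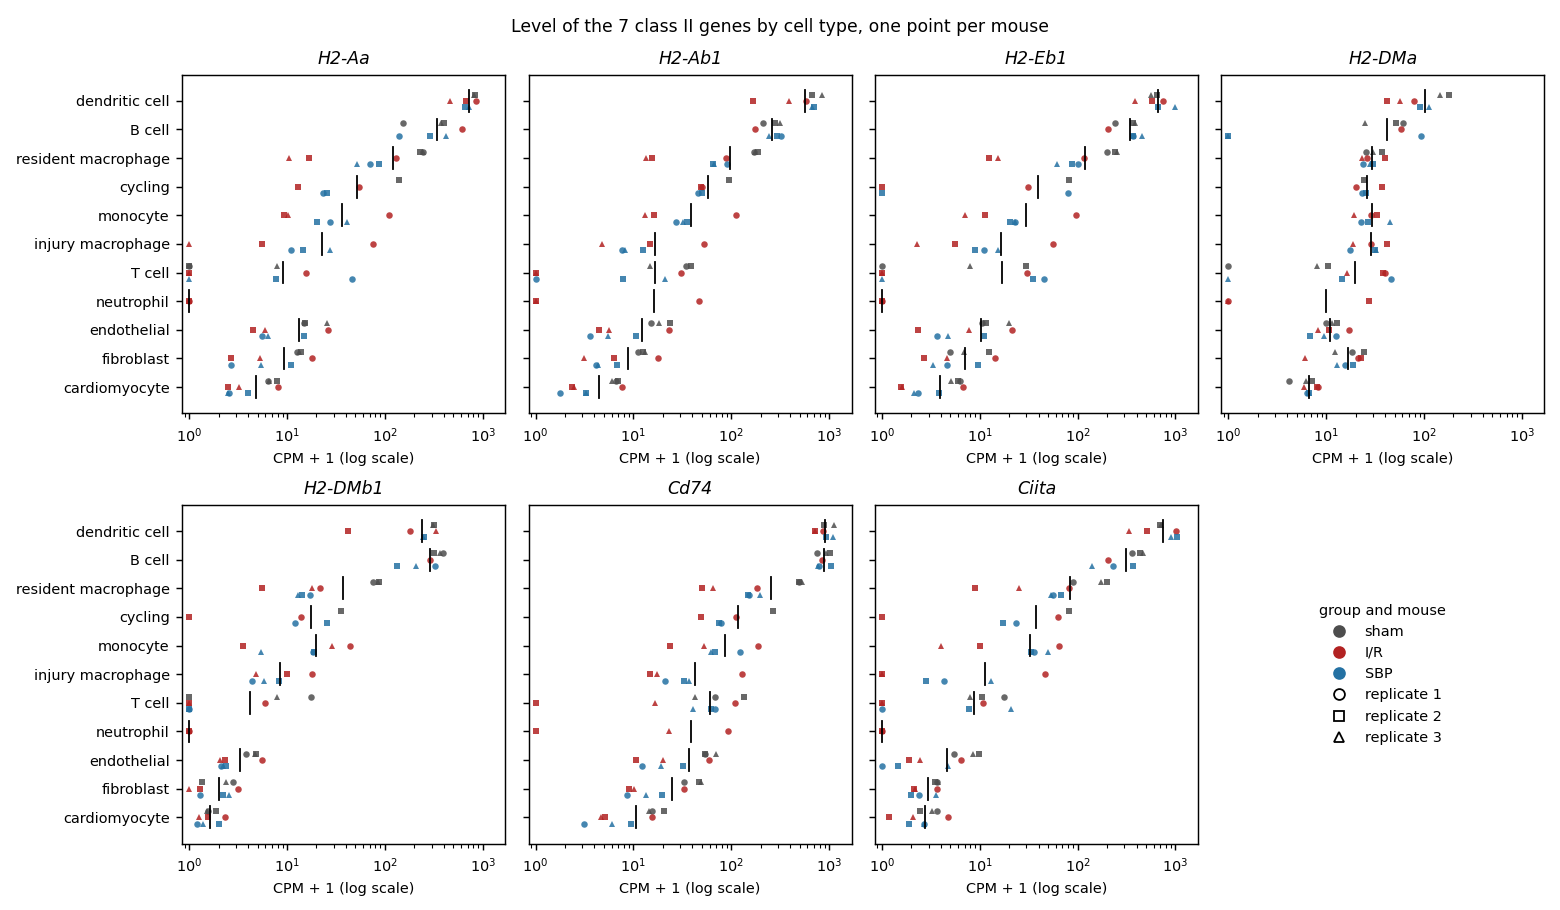
Level of each member (CPM + 1, logarithmic axis) in each cell type, with 1 point per mouse coloured by group and shaped by replicate number, and a vertical bar at the mean over mice. Dendritic and B cells have the highest means for every gene, I/R replicates 2 and 3 are the lowest resident macrophage points for Cd74, Ciita, H2-Aa, H2-Ab1 and H2-Eb1, and the resident macrophage points of H2-DMa stay between 22 and 39.4 CPM.

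Shares of nuclei with a UMI were also highest in dendritic and B cells. At least 1 member was detected in 90.8% of 349 dendritic cell nuclei, 86.8% of 334 B cell nuclei and 43.2% of 4072 resident macrophage nuclei. After each nucleus was thinned to 800 UMIs, with shallower nuclei left out, the shares were 88.7% (335 nuclei), 81.7% (213) and 32.6% (4072). Cardiomyocytes, which should lack the genes, gave 13.3% unthinned at a median of 4425.5 UMIs and 2.7% thinned, against a median of 1593.5 UMIs in resident macrophages. Endothelial cells (6.51% thinned), fibroblasts (5.37%) and T cells (8.9%) lay close to each other, and Cd74 was detected in 3 of 200 neutrophil nuclei. These shares pool mice that differed: thinned, at least 1 member was detected in 52.1% to 53.6% of resident macrophage nuclei in sham, in 31.5%, 7.79% and 7.69% in I/R and in 17.2% to 24.6% in SBP. Monocytes gave 33.9%, 5.48% and 8.28% in the I/R mice and 10.3% to 14.3% in SBP. Injury macrophages gave 20.1%, 5.26% and 4.53% in I/R and 5.15% to 8.53% in SBP.

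Across 11 cell types and myeloid subtypes, which share the same 9 libraries, the mean log2(CPM + 1) of the members correlated between pairs with Pearson's r of 0.731 to 0.985, and the pairs with H2-DMa gave the lowest values. The gene most like the mean of the 6 members other than Ciita, out of 14114 genes, was Kmo (r = 0.966), which encodes kynurenine 3-monooxygenase. It was followed by Hlcs (r = 0.965), the holocarboxylase synthetase, Slc38a9 (r = 0.948), a lysosomal amino acid sensor, Colgalt1 (r = 0.927), a collagen galactosyltransferase, and Cd83 (r = 0.916), a surface marker of mature dendritic cells. All 5 had their highest mean in dendritic cells.

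The first comparison asked what ischemia and reperfusion did to the members in myeloid nuclei as a whole. Cd74, the invariant chain, stood at 482, 490 and 532 CPM in the sham mice, at 167, 42.1 and 61.9 in the I/R mice and at 130, 112 and 151 in the SBP mice (replicates 1 to 3 in each). The sham mice were all above both other groups, and I/R replicates 2 and 3 were the lowest of the 9. Ciita had 130, 204 and 196 CPM in sham, 93.2, 16 and 19.7 in I/R and 45.9, 75.5 and 65.2 in SBP. As for Cd74, no sham mouse overlapped another group, and the SBP mice lay between the I/R mice.

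Against sham, 6 of the 7 members fell in the I/R group by limma (called where the Benjamini-Hochberg p did not exceed 0.05 and log2 values differed by more than 0.25), where 17.5% of 10905 genes passed and 7.43% passed as lower. On the log2(CPM + 1) scale, Cd74 was 6.52-fold lower (log2 fold change -2.71, SE 0.41, adjusted p = 0.00247). Both chains of H2-A fell, H2-Aa by 2.81 (adjusted p = 0.014) and H2-Ab1 by 2.63 (adjusted p = 0.00681), and H2-Eb1 fell by 2.84 (adjusted p = 0.00814). H2-DMb1 fell by 2.67 (adjusted p = 0.00783) and Ciita by 2.44 (adjusted p = 0.0206). H2-DMa did not pass, with a log2 fold change of -0.25 (95% interval -0.82 to 0.31, adjusted p = 0.545), and its mice overlapped at 26.7, 39.4 and 32.5 CPM in sham and 28, 35.1 and 20.2 in I/R. When each mouse was left out in turn, 5 members passed in all 9 fits and Ciita in 5 (3.95% to 7.43% of genes as lower), and without I/R replicate 1 the same 6 passed (7.25% of genes as lower). Their folds were larger without that mouse, at 12.6 for H2-Aa (7.02 with it), 12 for H2-Eb1 (7.14), 10.1 for H2-Ab1 (6.18), 9.65 for Cd74 (6.52), 9.29 for Ciita (5.42) and 8.6 for H2-DMb1 (6.38). The count was also 6 without dendritic cells (7.63% of genes as lower) and without nuclei holding a UMI of a dendritic cell marker or of a B cell marker other than Bank1 (5.62%), which are alternatives chosen after seeing the data. The marker filter kept 5048 of 9564 myeloid nuclei.

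The myeloid sum mixes subtypes whose shares differed between the groups, since resident macrophages made up 89.3% to 94.2% of the myeloid nuclei in sham, 15.6% to 50.3% in I/R and 24.1% to 51.5% in SBP. The same comparison was therefore made within the resident macrophages. Cd74 stood at 487, 497 and 522 CPM in the sham mice, 184, 49.5 and 64.1 in I/R and 150, 147 and 195 in SBP. H2-Aa stood at 246, 227 and 244 CPM in sham, 128, 15.8 and 9.57 in I/R and 69.4, 85.9 and 50.9 in SBP. In both genes the sham mice were clear of the rest, I/R replicate 1 was near or above the SBP mice and I/R replicates 2 and 3 were far below them.

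H2-DMb1 gave 74.4, 85.9 and 83.7 CPM in sham, 20.5, 4.5 and 17.2 in I/R and 16.1, 13.2 and 12 in SBP. Here the I/R and SBP mice overlapped at a low level, and I/R replicate 1 was not apart from the others. Ciita gave 87.8, 199 and 174 CPM in sham, 80.4, 7.88 and 23.9 in I/R and 54.9, 66.1 and 52.4 in SBP. Sham replicate 1 lay close to I/R replicate 1 for this gene, so the gap between the groups was small. H2-DMa ranged from 22 to 39.4 CPM over all 9 mice, with every group overlapping.

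**Figure D2:**
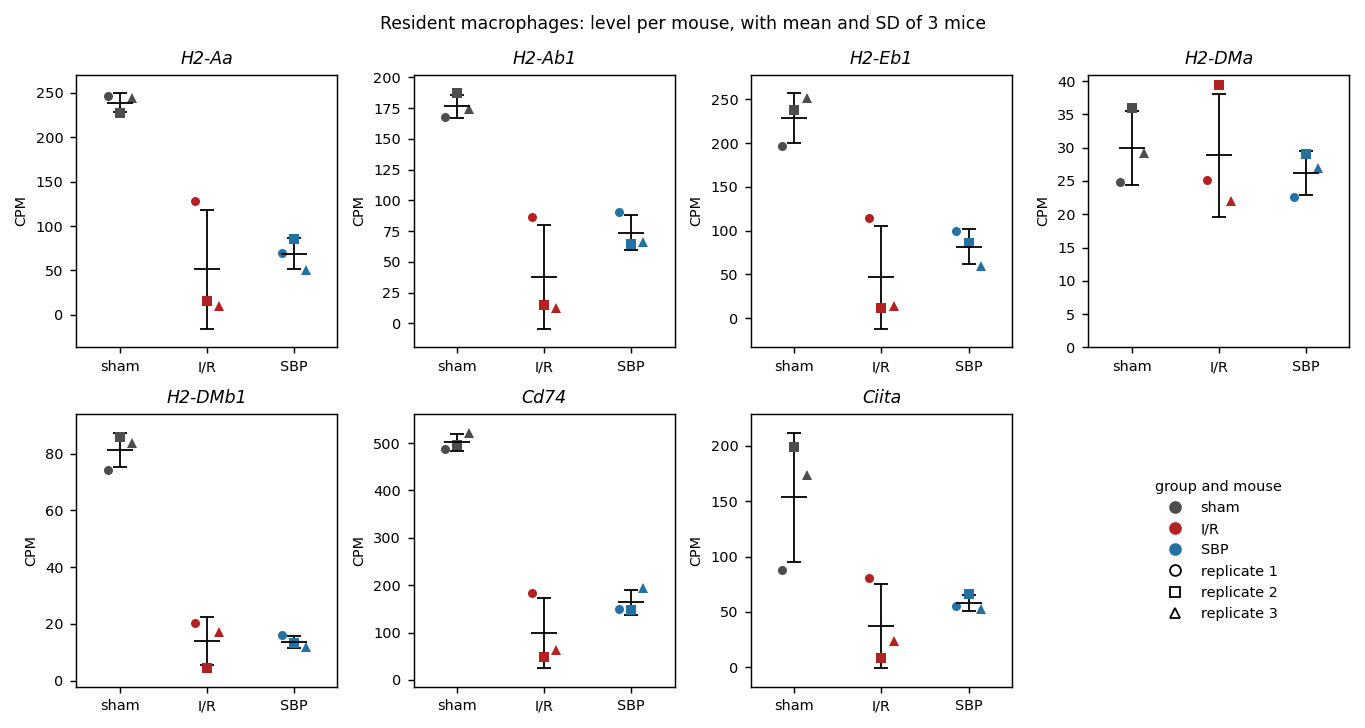
Level in resident macrophages (CPM) of each member, with 1 point per mouse and the mean and SD of 3 mice in each group. For 6 genes the sham points lie above all others, I/R replicate 1 (red circle) lies above I/R replicates 2 and 3 for these 6, and H2-DMa shows 3 overlapping groups. The share of all genes with sham above every other mouse is not given here. By limma, 2 of the 6 were called in I/R against sham and 1 in SBP against sham.

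In resident macrophages 2 of 7 members fell in I/R against sham, where 1.33% of 9084 genes passed and 0.859% passed as lower. H2-DMb1 fell by 2.67 on the log2 scale (SE 0.42, adjusted p = 0.00768), which is 6.36-fold, and Cd74 by 2.57 (SE 0.39, adjusted p = 0.0136), which is 5.93-fold. H2-Aa (-3.08, SE 0.85, adjusted p = 0.138), H2-Eb1 (-3.04, SE 0.79, adjusted p = 0.117), H2-Ab1 (-2.74, SE 0.61, adjusted p = 0.066) and Ciita (-2.48, SE 0.71, adjusted p = 0.131) had differences of the same size but a wider spread, and H2-DMa had -0.08 (adjusted p = 0.932). Without I/R replicate 1, the count was 6 of 7 (4.09% of genes passed as lower), with H2-Aa 18-fold, H2-Eb1 16.6-fold and H2-Ab1 12.2-fold lower. The count dropped to 0 when sham replicate 2 was left out (0.057% of genes as lower) and to 1 when sham replicate 3 was (0.215%).

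The resident class was made of different clusters in different mice, which limits this comparison. A cluster led by Hpgd held at least 99.4% of the class in each sham mouse, 99.7% in I/R replicate 1 and 75.4%, 96.9% and 96.4% in the SBP mice, but 4.62% and 20.6% in I/R replicates 2 and 3, where a cluster led by Hif3a held the rest. Within the Hpgd cluster alone, Cd74 stood at 479, 524 and 515 CPM in sham and 138, 144 and 189 in SBP (CPM of total UMIs, without TMM). In I/R it stood at 183 in replicate 1 and 50.6 in the 107 nuclei of replicate 3, and replicate 2 had too few nuclei. Within the Hif3a cluster, H2-Aa was 15.8 and 12.5 CPM in I/R replicates 2 and 3 and 80.4 in the 83 nuclei of SBP replicate 1. For the gene given in each cluster, the I/R mice other than replicate 1 were below the SBP mice that had a value. This did not hold for H2-DMa. In the Hpgd cluster it stood at 50.6 CPM in I/R replicate 3 and 21.6, 27.3 and 26.3 in SBP. In the Hif3a cluster it stood at 37.3 and 13.7 in I/R replicates 2 and 3 and 24.7 in SBP replicate 1. At a finer resolution, a cluster led by Ptchd1 and without a name held 764 nuclei. H2-Aa stood in it at 536, 415 and 403 in the sham mice, 307 in I/R replicate 1, 0 in the 20 nuclei of I/R replicate 3 and 229, 266 and 144 in the SBP mice. I/R replicate 2 had too few nuclei in it (5) for a value. In a cluster with Lyve1 among its leading genes (1234 nuclei), H2-Aa stood at 131 and 44.4 CPM in sham replicates 1 and 3, 84.3 and 0 in I/R replicates 1 and 3 and 32.7, 45.5 and 23.7 in the SBP mice. Sham replicate 2 (11 nuclei) and I/R replicate 2 (5) had too few for a value. This cluster held 119, 11 and 72 nuclei in the sham mice and 185, 289 and 249 in the SBP mice. Another resident macrophage cluster at this resolution, led by Cmah, held 152, 374 and 390 in sham and 2, 19 and 11 in SBP. The make-up of the resident class thus also differed between sham and SBP.

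Markers of other antigen-presenting cells were also summed in the resident macrophages. The 6 B cell markers summed to 661 to 766 CPM in sham, 606, 112 and 158 in I/R and 383 to 768 in SBP, almost all of it Bank1, since the other 5 summed to 1.93 to 9.61 CPM over all 9 mice. The 9 dendritic cell markers summed to 379 to 450 CPM in sham, 319 to 330 in I/R and 411 to 518 in SBP. Most of this was Wdfy4 (286 to 329 CPM in sham, 247 to 278 in I/R and 311 to 406 in SBP) and Zbtb46 (66.1 to 76.8, 35.8 to 49.1 and 49.7 to 89.3). Siglech reached 36.8 CPM, Ccr7 was at 0 in all 9 mice and Flt3 at 0 to 10.6 CPM. With nuclei holding such a marker (Bank1 aside) left out, 2193 of 4072 nuclei of this class remained. Among these nuclei, 3 members were called in I/R against sham (0.764% of genes as lower) and 1 in SBP against sham (0.867%).

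The share of resident macrophage nuclei with a UMI of an α or β chain gene moved with the summed level. After thinning to 800 UMIs, H2-Aa, H2-Ab1 or H2-Eb1 was detected in 30.9%, 33.4% and 35.8% of nuclei in the sham mice, 18.4%, 2.68% and 1.92% in I/R and 11%, 12.1% and 13.6% in SBP. Sham was above both other groups in every mouse, and SBP lay between I/R replicate 1 and I/R replicates 2 and 3. Unthinned shares were 40.2%, 45.6% and 49.1%, then 29.5%, 5.11% and 4.42%, then 13.6%, 19.9% and 18.3%, with medians of 1357 to 1807 UMIs per nucleus. Cardiomyocytes of the same libraries gave 1.28% to 1.82% (sham), 0.318% to 1.84% (I/R) and 0.502% to 0.638% (SBP) thinned.

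**Figure D3:**
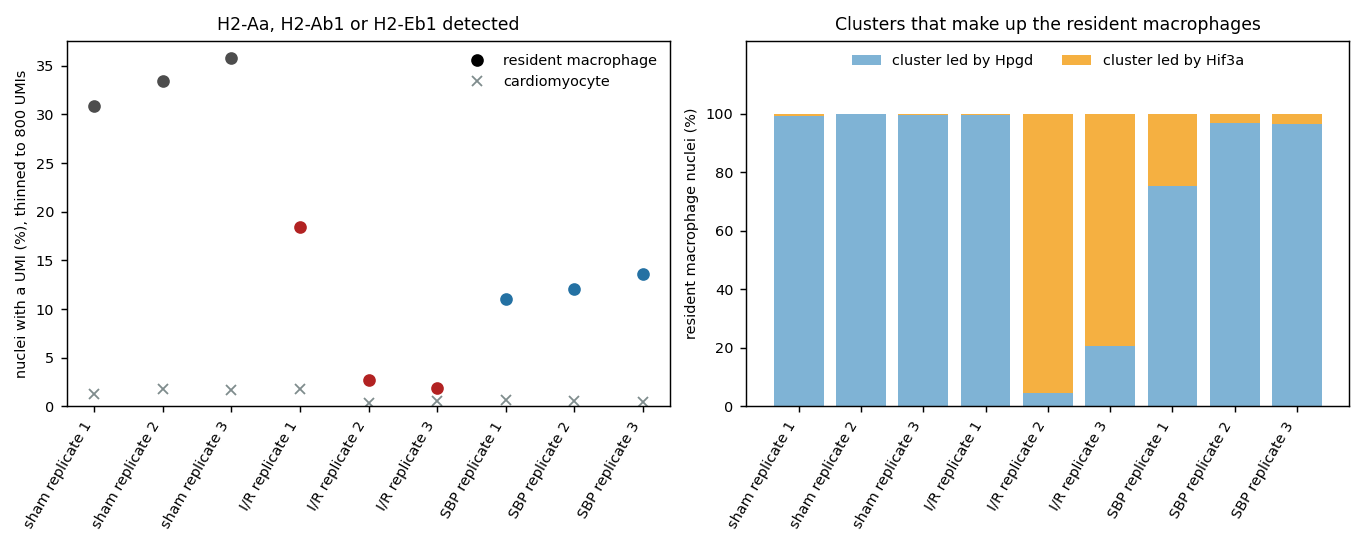
Left: share of resident macrophage nuclei (points) and of cardiomyocytes (crosses) with a UMI of H2-Aa, H2-Ab1 or H2-Eb1 after thinning to 800 UMIs, in each mouse. Right: share of each mouse's resident macrophage nuclei in the cluster led by Hpgd and in that led by Hif3a; the 2 I/R mice with the lowest shares at left are those made mostly of the Hif3a cluster.

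The second comparison set SBP against sham. In myeloid nuclei 2 of 7 members fell in SBP against sham, where 12.1% of genes passed and 5.08% passed as lower. H2-DMb1 fell by 2.32 (SE 0.52, adjusted p = 0.0196) and Cd74 by 1.94 (SE 0.41, adjusted p = 0.0157), which is 4.99-fold and 3.83-fold. H2-Aa missed the threshold at -2.01 (adjusted p = 0.0606), although all 3 SBP mice (57.7, 64 and 62.3 CPM) were below all 3 sham mice (243, 241 and 266). In this fit the 3 groups share 1 estimate of the spread, and H2-Aa had an SD of 14 CPM among sham mice, 54.7 among I/R mice and 3.26 among SBP mice. With only the sham and SBP mice in the fit, 6 of 7 members were called, where 7.6% of genes passed as lower.

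In resident macrophages H2-DMb1 alone fell in SBP against sham, by 2.48 (SE 0.42, adjusted p = 0.0102), which is 5.6-fold, where 1.46% of genes passed and 1.12% passed as lower. Cd74 missed the threshold (-1.62, SE 0.39, adjusted p = 0.0854). With only the mice of these 2 groups in the fit the count was 6 (3.52% passed as lower), and without I/R replicate 1 it was 5 (2.04%). The count was 0 without sham replicate 2 (0.103% of genes as lower), SBP replicate 2 (0.119%) or SBP replicate 3 (0.15%). In myeloid nuclei it was 6 without I/R replicate 1, where 6.01% of genes passed as lower. It was 0 without sham replicate 2 (2.34%) or 3 (2.68%), and 1 without sham replicate 1 (3.28%) or SBP replicate 1 (4.5%), 2 (2.17%) or 3 (2.35%).

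The third comparison asked whether SBP changed the members in the injured heart. No member was called in myeloid nuclei or in resident macrophages with all 9 mice, and neither was any of the genes tested (0%), although 419 myeloid and 518 resident macrophage genes had an unadjusted p under 0.05 by limma. In resident macrophages H2-Ab1 was 2.79-fold higher with SBP than in I/R (log2 fold change 1.48, 95% interval 0.11 to 2.86, adjusted p = 0.848), H2-Eb1 had 1.54 (-0.3 to 3.39), H2-Aa 1.27 (-0.75 to 3.28), Ciita 1.16 (-0.46 to 2.78) and Cd74 0.95 (0.08 to 1.82). H2-DMb1 had 0.18 (-0.7 to 1.07) and H2-DMa -0.1 (-0.71 to 0.51). Of the 7 intervals, 5 held 0.

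The outcome of this comparison turned on 1 mouse. Without I/R replicate 1, 4 members of resident macrophages were called higher in SBP than in I/R, where 0.292% of genes passed as higher. H2-Eb1 was 5.92-fold higher (adjusted p = 9.27e-05), H2-Aa 5.13-fold (adjusted p = 0.000326), H2-Ab1 5.09-fold (adjusted p = 9.27e-05) and Cd74 2.85-fold (adjusted p = 0.00124), while H2-DMb1 was 1.47-fold higher (adjusted p = 0.744). In myeloid nuclei the same step gave 5 members called higher, with 0.0839% of genes passing as higher: H2-Eb1 (3.76-fold), H2-Ab1 (3.52-fold), Ciita (3.3-fold), H2-Aa (3.12-fold) and Cd74 (2.52-fold). Leaving out any other mouse gave no such call. The labels do not mark I/R replicate 1 as different. In the resident class the Hif3a cluster held 95.4% and 79.4% of I/R replicates 2 and 3, and 24.6%, 3.1% and 3.55% of the SBP mice. Treatment and cluster make-up cannot be told apart in the fit without I/R replicate 1.

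**Figure D4:**
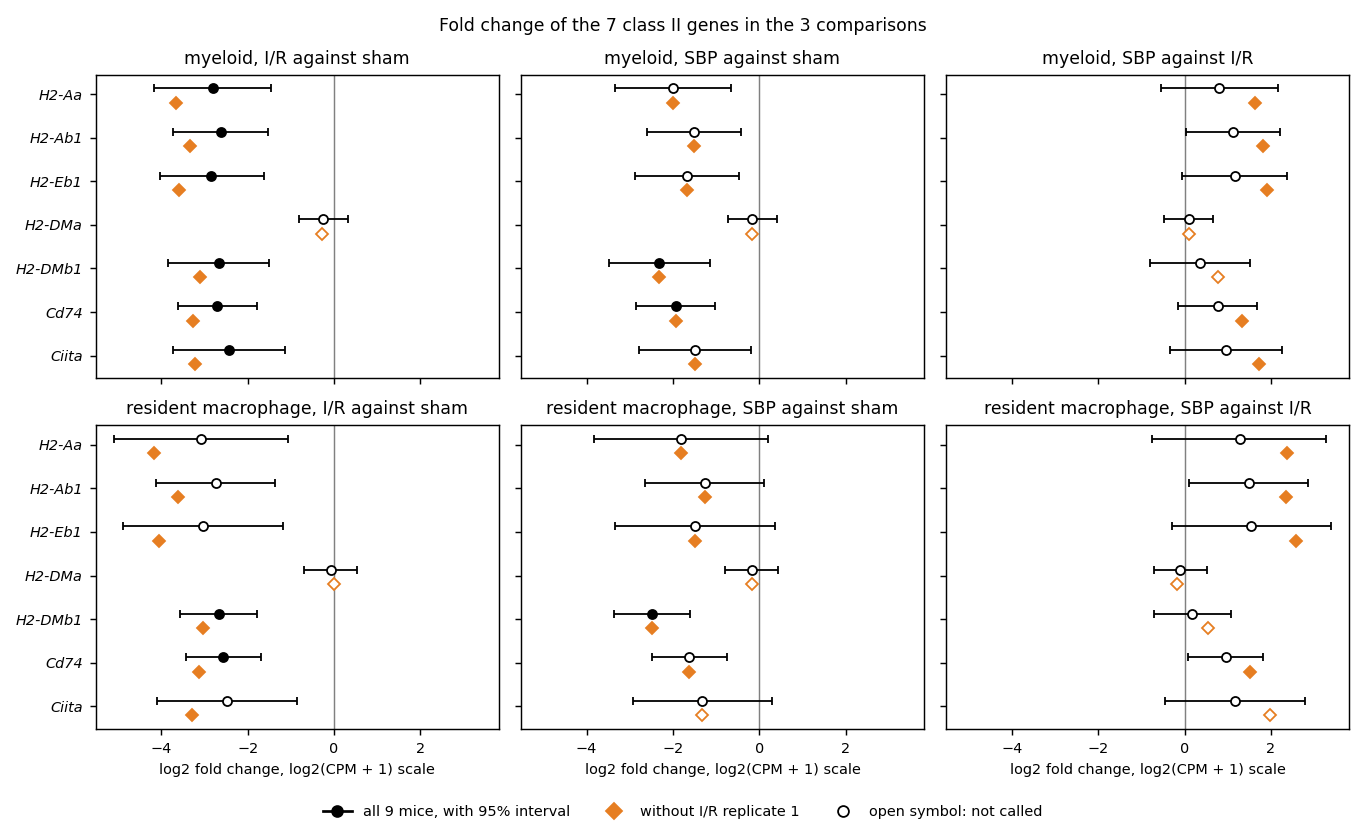
Log2 fold change of each member on the log2(CPM + 1) scale in myeloid nuclei (top) and resident macrophages (bottom) in the 3 comparisons. Black points use all 9 mice with a 95% interval, orange diamonds leave out I/R replicate 1, and open symbols did not pass; in SBP against I/R the black points are all open, and 5 myeloid and 4 resident macrophage diamonds are filled.

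In dendritic cells, where the levels were highest, no member was called in any comparison (background 1.73% for I/R against sham, 0% for SBP against I/R and 0.393% for SBP against sham; 235, 32 and 169 of 1272 genes had an unadjusted p under 0.05). Cd74 stood at 876 and 1112 CPM in 2 sham mice, 871, 719 and 721 in the I/R mice and 929 and 1085 in 2 SBP mice, and the other sham and SBP mouse had too few nuclei. Its log2 fold change in I/R against sham was -0.36 (95% interval -1.03 to 0.31). H2-Aa stood at 831 and 821, then 851, 678 and 462, then 654 and 731 CPM, so I/R replicate 1 was at the sham level. H2-Ab1 had a log2 fold change of -1.17 (-2.17 to -0.17, adjusted p = 0.19), with I/R replicate 2 lowest at 164 CPM. H2-DMb1 had -1.2 (-2.73 to 0.34), Ciita -0.33 (-1.25 to 0.59) and H2-Eb1 -0.14 (-0.95 to 0.67). H2-DMa stood at 180 and 146 CPM in sham, 78.3, 41.1 and 55.5 in I/R and 89.9 and 111 in SBP. These values rest on 2 to 16 UMIs a mouse. The groups did not overlap, but the gene did not pass the filter on low values and was not tested in dendritic cells.

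The fold change in resident macrophages minus that in dendritic cells was tested in 1 fit, added after seeing the data. For I/R against sham the difference of log2 fold changes was -3 for H2-Eb1, -2.7 for H2-Aa, -2.5 for Ciita, -2.23 for Cd74, -1.6 for H2-Ab1 and -1.54 for H2-DMb1, with adjusted p from 0.157 to 0.353. None of the 6 passed among 1250 genes, of which 3 were called, and 164 had an unadjusted p under 0.05. All 6 members were among these (unadjusted p by limma from 0.00287 to 0.037), each with a 95% interval below 0, as for H2-Eb1 (-4.79 to -1.22). After adjustment over the genes tested, the difference between the cell types did not pass.

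B cells were numerous enough in 7 mice. Cd74 stood at 753, 1013 and 933 CPM in sham, 837 in I/R replicate 1 and 782, 1051 and 764 in SBP, and Ciita at 361, 430 and 460, then 202, then 230, 368 and 139. None of 5 members tested was called in SBP against sham (3.03% of 727 genes were; 91 had an unadjusted p under 0.05). The log2 fold change of Cd74 was -0.06 (95% interval -0.62 to 0.5) and that of Ciita -0.87 (-1.77 to 0.04, adjusted p = 0.425). H2-DMb1 had -0.78 (-1.7 to 0.14), H2-Aa -0.15 (-1.22 to 0.91) and H2-Eb1 0.28 (-0.49 to 1.04). The median over all genes in this fit was -0.18 and moved by 0.3 when the sums were scaled by total UMIs alone, so small differences in B cells depend on the scaling.

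Monocytes and injury macrophages were compared between I/R and SBP only. In monocytes, H2-Aa stood at 110, 8.3 and 9.16 CPM in the I/R mice and 26.2, 19.3 and 39.6 in SBP. In injury macrophages it stood at 75, 4.55 and 0 in I/R and 10, 13.5 and 26.4 in SBP, where a count of 0 allows up to 3 UMIs. I/R replicate 1 was the highest of the 6 mice in both, and I/R replicates 2 and 3 were the lowest. No member was called in SBP against I/R in either class or in cycling nuclei (0% of genes in each; 214, 281 and 45 genes had an unadjusted p under 0.05 in monocytes, injury macrophages and cycling nuclei), but only 3 members in monocytes, 2 in injury macrophages and none in cycling nuclei passed the filter on low values. In monocytes the log2 fold change was 1.5 for Ciita (95% interval -0.4 to 3.39), 0.4 for Cd74 (-1.14 to 1.94) and 0.11 for H2-Ab1 (-1.44 to 1.66). Without I/R replicate 1 it was 2.64 for Ciita and 1.22 for Cd74, neither called by limma (adjusted p = 0.484 and 0.617), and H2-Ab1 was not tested. In injury macrophages, with all mice, the log2 fold change was -0.13 for Cd74 (-1.7 to 1.45) and -0.11 for H2-DMa (-0.98 to 0.77).

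Endothelial cells, fibroblasts and cardiomyocytes had low levels of the members. Cd74 in endothelial cells stood at 53.2, 53.1 and 68.8 CPM in sham, 57.9, 9.59 and 19 in I/R and 11.3, 30.8 and 18 in SBP. In fibroblasts it stood at 32, 46 and 47.7, then 31.6, 7.94 and 9.1, then 7.61, 18.8 and 12.3, and in cardiomyocytes at 14.6, 19.7 and 13.3, then 14.5, 4.18 and 3.68, then 2.1, 8.51 and 5.11. I/R replicate 1 was at or near the sham level in all 3 types, and SBP was below sham in every mouse. No member was called in these types in any of the 3 comparisons with all 9 mice. For I/R against sham the background was 3.26% in endothelial cells, 11.5% in fibroblasts and 0.828% in cardiomyocytes, for SBP against sham 2.3%, 5.98% and 0.147%, and for SBP against I/R 0% in each. By limma, 2152, 3325 and 1823 genes had an unadjusted p under 0.05 in the first of these, 1890, 2576 and 1721 in the second and 627, 460 and 274 in the third. Without I/R replicate 1, 3, 3 and 4 members were called lower in I/R against sham, where 2.01%, 4.58% and 3.38% of genes passed as lower. With only the sham and SBP mice in the fit, 2 members were called lower in SBP in each of the 3 types, where 3.09%, 3.45% and 1.44% of genes passed as lower. With all 9 mice, the log2 fold changes in I/R against sham ran from -1.34 (Cd74) to 0.01 (H2-DMa) over 6 members tested in endothelial cells, from -1.56 (Cd74) to -0.31 (H2-DMa) over 5 in fibroblasts and from -1.21 (Cd74) to 0.36 (H2-DMa) over 6 in cardiomyocytes. Without I/R replicate 1 they ran from -2.02 (Cd74) to -0.28 (H2-DMa), from -2.16 (Cd74) to -0.6 (H2-DMa) and from -1.86 (H2-Eb1) to 0.26 (H2-DMa). In SBP against sham, with all 9 mice, they ran from -2.02 (Ciita) to -0.26 (H2-DMa), from -1.69 (Cd74) to -0.18 (H2-DMa) and from -1.56 (Cd74) to 0.2 (H2-DMa). H2-DMb1 was not tested in these types, nor was Ciita in fibroblasts.

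The markers of myeloid cells in these types were measured beside the members. In endothelial cells the 9 myeloid markers summed to 309 to 413 CPM in sham, 622 to 799 in I/R and 349 to 505 in SBP, and per 100 of their UMIs there were 13 to 18.8 Cd74 UMIs in sham, 1.33 to 7.4 in I/R and 2.42 to 6.24 in SBP. In myeloid nuclei themselves this ratio was 4.2 to 6.38 in sham, 0.359 to 2.59 in I/R and 1.18 to 1.57 in SBP. The 6 B cell markers in endothelial cells summed to 29.4 to 53 CPM in sham, 3.42 to 18.6 in I/R and 11.5 to 15 in SBP, so they were higher in sham than in both other groups, as Cd74 was except in I/R replicate 1. These sums include Bank1, which made up almost all of the same sum in resident macrophages. Its part in endothelial cells is not given here, so the sums do not mark B cell RNA alone. With all nuclei that held a UMI of a myeloid or B cell marker left out, no member was called in these types. None was called with them kept either, so this step cannot show where the low levels came from. It kept 6996 of 13443 endothelial, 7815 of 14123 fibroblast and 5725 of 10562 cardiomyocyte nuclei. The part that RNA from other cells had in these low levels was not tested.

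Other genes of antigen presentation were taken from lists. The 7 endosomal processing genes found in the files include the proteases that cut antigen and the invariant chain, and in myeloid nuclei 5 of them rose and none fell in I/R against sham, where 10.1% of genes were called higher (median log2 fold change 1.51, against 0.09 over all genes and -2.67 over the 7 members). Ctsl, which encodes cathepsin L, stood at 15, 22.3 and 30.3 CPM in sham and 250, 188 and 201 in I/R, and rose by 3.22 (adjusted p = 8.16e-06). Ctsd, cathepsin D, rose by 2.63 (adjusted p = 0.00385), Ctss, the cathepsin that trims the invariant chain, by 1.64 (adjusted p = 0.000427) and Lgmn, legumain, by 1.51 (adjusted p = 0.000409). In SBP against sham 4 of these genes rose (6.99% of genes were called higher), Ctsl by 3.01 (adjusted p = 1.64e-05). Within resident macrophages, where 0.473% and 0.341% of genes were called higher in the same 2 comparisons, 1 rose in I/R, Ctsl by 2.01 (adjusted p = 0.0081), and 2 in SBP against sham, Ctsl by 1.45 (adjusted p = 0.0404) and Lgmn by 0.79 (adjusted p = 0.0293). Members of this list also rose outside the myeloid nuclei in I/R against sham. In fibroblasts 4 of 7 rose (912 of 13071 genes called higher), with Ctss by 2.91 and Lgmn by 2.42. In endothelial cells 2 rose (223 of 12215 called higher), Lgmn by 1.97 and Ctsl by 1.72. In cardiomyocytes 2 rose (84 of 12918 called higher), Ctss by 2.73 and Ctsl by 1.37. The 9 myeloid markers summed to 202 to 246 CPM in sham and 335 to 475 in I/R in fibroblasts. In cardiomyocytes they summed to 80 to 110 in sham and 150 to 223 in I/R. The part that RNA from other cells had in the rises of these types was not tested. In SBP against sham 2 rose in fibroblasts (498 of 13071 genes called higher), Lgmn by 1.63 and Ctsl by 1.02. None was called in endothelial cells or cardiomyocytes, where 2.3% and 0.147% of genes were called.

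Of the 4 genes listed under costimulation (Cd80, Cd86, Cd40 and Cd83), 3 fell in myeloid nuclei in I/R against sham, where 7.43% of genes were called lower (median -1.19, against 0.09 over all genes). Cd83 fell by 1.83 (adjusted p = 0.00394), Cd86 by 1.54 (adjusted p = 0.000651) and Cd40 by 0.84 (adjusted p = 0.0206). Cd86 stood at 580, 428 and 730 CPM in sham, 172, 194 and 220 in I/R and 359, 238 and 351 in SBP, without overlap between the 3 groups. Against sham 2 of the 4 fell in SBP, where 5.08% of genes were called lower (median -0.93, against 0.05 over all genes), Cd40 by 0.99 (adjusted p = 0.0125) and Cd86 by 0.86 (adjusted p = 0.0212). Within resident macrophages none of the 4 was called in either comparison, where 1.33% and 1.46% of genes were called. Cd86 there stood at 626, 435 and 739 CPM in sham against 482, 334 and 380 in I/R. In fibroblasts 2 of the 4 fell in I/R against sham (11.5% of genes called), Cd40 by 1.9 (adjusted p = 0.000486) and Cd83 by 1.68 (adjusted p = 0.0181), and 2 in SBP against sham (5.98%), Cd40 by 1.35 (adjusted p = 0.00579) and Cd86 by 1.34 (adjusted p = 0.0282). None was called in endothelial cells or cardiomyocytes.

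The factors that bind the class II promoter (Rfx5, Rfxap, Rfxank, Nfya, Nfyb, Nfyc and Creb1) gave no call in myeloid nuclei in any comparison (median -0.19 in I/R against sham), and neither did 6 tested genes of the interferon gamma pathway (median 0.18), where 17.5% of all genes were called in I/R against sham, 12.1% in SBP against sham and 0% in SBP against I/R. In endothelial cells 2 of 6 tested interferon gamma pathway genes fell in SBP against sham (2.3% of all genes called), Irf1 by 0.93 (adjusted p = 0.0129) and Ifngr2 by 0.84 (adjusted p = 0.0266). Of 11 class I presentation genes, none was called in I/R against sham (median -0.13) and B2m, the light chain of class I, fell by 0.74 in SBP against sham (adjusted p = 0.0431; 5.08% of all genes as lower), with 192, 209 and 214 CPM in sham and 101, 174 and 103 in SBP. Of 4 other class II region genes in the files, H2-DMb2, H2-Oa, H2-Ob and H2-Eb2, only 2 could be tested in myeloid nuclei. H2-Ob, a chain of the H2-O dimer that restrains H2-DM, fell by 1.82 in I/R against sham (adjusted p = 0.0497), with 16.7, 17.1 and 6.5 CPM in sham and 7.93, 0.695 and 2.63 in I/R. It was not among the genes tested without I/R replicate 1. The promoter factors in resident macrophages gave no call either, with 3 of 7 tested. There 1.33% of genes were called in I/R against sham, 1.46% in SBP against sham and 0% in SBP against I/R.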

How the data were processed

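Nuclei from 9 frozen mouse hearts (3 per group, 1 library each) were sequenced with 10x Genomics 3' chemistry. According to the submitters' processing notes and the study's methods, the authors trimmed reads, aligned them to GRCm38 with Cell Ranger 4.0 (STAR), normalised libraries by read depth, kept nuclei by gene number and mitochondrial share, removed mitochondrial genes and used Seurat 3.2.0. The methods name other software versions in places, and the nuclei they state are more than the barcodes in the files. The deposited values are on a natural log scale: ln of 1 plus UMIs per 10000 in each nucleus. They gave whole UMIs within 0.1 for at least 99.99936% of values, and these UMIs were used for sums. The lowest gene number in a nucleus was 405. No column of other samples was present.

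Nuclei were clustered with scanpy 1.11.5 under Python 3.11.15 on 2000 variable genes without the 7 members (Leiden resolution 0.3, 0.4 within myeloid nuclei) and clusters were named from markers with at least 3 detected in over 10% of nuclei; names may differ from the study's. Scrublet marked 85 nuclei, which is too few for the caller to have worked; they were removed. UMIs were summed per mouse and type (at least 20 nuclei), scaled by TMM and tested as log2(CPM + 1) with limma 3.58.1 in R 4.3.3 (trend and robust variances; all groups in 1 fit; Benjamini-Hochberg over all genes tested). A gene entered if its CPM reached that of 10 UMIs in a median library in 3 samples and it had 15 UMIs in all. The limma test was chosen because the deposited values are on a log scale; no count test was run on the recovered UMIs. A pseudocount understates changes of low genes. p-values measure the spread between mice. On the log2(CPM + 1) scale the test was run on simulated counts. These had the same spread in all groups and equal shifts in all I/R mice, so unequal spread between groups was not covered.

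All 7 members were taken in each type, with values per mouse for some and means or fold changes for others; from pathway lists, up to 4 called genes with the smallest adjusted p; and by likeness, the 5 genes with the highest correlation among those with at least 200 UMIs. The members, lists and tests were chosen with earlier results of these data known. Alternatives covered the pseudocount (5 CPM), filter, scaling, samples in the fit, replicate block, variance model, doublets, cell type calls, the mean of deposited values and each mouse left out. Promoter sequences are from RefSeq (GRCm38.p6).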

Additional observations from a re-analysis of the deposited data

How the results depend on the processing

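The 6 member calls in myeloid nuclei for I/R against sham were 5 or 6 under every alternative run, and leaving out each mouse gave 5 to 6. Other counts depended on the settings. For SBP against sham, with only the mice of the 2 groups in the fit, 6 members were called in myeloid nuclei (2 with all mice), 6 in resident macrophages (1), and 2 each in endothelial cells, fibroblasts and cardiomyocytes (0), while 1750, 398, 530, 1052 and 392 of all genes were called (1316, 133, 281, 781 and 19 with all mice). With means of the deposited values, where a call needed the adjusted p alone and no fold change threshold, 6 were called in myeloid nuclei for SBP against sham. In resident macrophages 5 were called for both I/R and SBP against sham. The share of all genes called is not given for this setting or for those that follow. Over the alternatives that left out no mouse, 41 to 233 genes were called in resident macrophages for I/R against sham and 13 to 398 for SBP against sham. The member counts of these settings are therefore not a result about the members. At resolution 0.8, resident macrophages gave 4 (I/R against sham) and 2 (SBP against sham), and this class left out the unnamed Ptchd1 cluster (764 nuclei). The Hpgd cluster alone gave 1 for I/R against sham, and limma without trend and robust variances 0 for SBP against sham. The cause of these changes was not tested.

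Leaving out each mouse gave, for I/R against sham, 0 to 6 in resident macrophages, 0 to 3 in endothelial cells and in fibroblasts and 0 to 4 in cardiomyocytes. Over these fits 0.057% to 4.09%, 0.15% to 2.59%, 2.27% to 5.57% and 0.00782% to 3.38% of genes passed as lower, in that order of types. For SBP against sham it gave 0 to 6 in myeloid nuclei, 0 to 5 in resident macrophages, 0 to 2 in endothelial cells and in fibroblasts and 0 to 3 in cardiomyocytes. Here 2.17% to 6.6%, 0.103% to 2.06%, 0.297% to 2.22%, 0.929% to 2.88% and 0% to 0.919% of genes passed as lower. For SBP against I/R it gave 0 to 5 in myeloid nuclei and 0 to 4 in resident macrophages, and all other member counts were 0. Without I/R replicate 1, 0.0839% of genes passed as higher in myeloid nuclei and 0.292% in resident macrophages. Apart from I/R against sham in myeloid nuclei, each highest member count was that without I/R replicate 1. 

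Log2 fold changes that turned sign when a mouse was left out were all uncalled. In the types other than myeloid nuclei and resident macrophages these were 33 of 79. The others were: in myeloid nuclei H2-DMa for SBP against I/R (-0.12 to 0.3) and against sham (-0.3 to 0.04) and H2-DMb1 for SBP against I/R (-0.39 to 0.78); in resident macrophages H2-DMa for I/R against sham (-0.31 to 0.08) and SBP against I/R (-0.27 to 0.14) and H2-DMb1 for SBP against I/R (-0.43 to 0.55). Under 5 CPM as pseudocount or total UMIs, none turned and no call changed among the 84 values compared.

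Thinning to 800 UMIs lowered the share of nuclei with any member to 81.7% in B cells, 32.6% in resident macrophages, 24.2% in myeloid nuclei, 18.6% in cycling nuclei, 13.8% in injury macrophages, 11.8% in monocytes, 8.9% in T cells, 6.51% in endothelial cells, 5.37% in fibroblasts and 2.7% in cardiomyocytes.

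Equal replicate numbers gave no clear pairing of the mice: correlations of their deviations ran from -0.31 to 0.3, and 1 to 5 of 9 pairs in a cell type were over 0.1. The best match of a mouse had its own number in 5 (cardiomyocytes) to 10 (myeloid nuclei, fibroblasts and resident macrophages) of 18 choices. With the replicate block, 5 members were called in myeloid nuclei for I/R against sham; all other member counts were as without it.

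Counts over all genes, leaving out no mouse, ran from 41 to 233 (121 reported) in resident macrophages and 1232 to 1939 (1910) in myeloid nuclei for I/R against sham, and from 13 to 398 (133) and 925 to 1750 (1316) for SBP against sham. In the same order of comparisons they ran from 767 to 1630 (1509) and 65 to 1052 (781) in fibroblasts, 244 to 455 (398) and 120 to 530 (281) in endothelial cells, 27 to 108 (107) and 0 to 392 (19) in cardiomyocytes and 12 to 174 (22) and 1 to 74 (5) in dendritic cells, and in B cells from 0 to 47 (22) for SBP against sham. Without I/R replicate 1, 640 genes were called in resident macrophages and 807 in cardiomyocytes for I/R against sham.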
